A study of Mus musculus with 6 samples.

Results

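The genes described here are 40 non-collagen matrix genes of mouse liver, which encode elastic fibre proteins, latent TGF-beta binding proteins, proteoglycans, matricellular proteins and adhesive glycoproteins. They were taken by gene symbol from a table of 55222 entries, and all 40 were found. The list itself was chosen with earlier results of these data known. The table holds 6 liver libraries in 3 groups of 2. The normal group received neither CCl4 (carbon tetrachloride, a solvent that injures hepatocytes) nor virus. The AAV-Ctrl group received CCl4 and a control adeno-associated virus. The AAV-shPhpt1 group received CCl4 and a virus that expresses a hairpin RNA against Phpt1, the gene of a phosphohistidine phosphatase. All animals were C57BL/6 mice. CCl4 was given by intraperitoneal injection at 12.5 ml/kg, 2 times a week, and the viruses were injected intravenously when CCl4 had been given for 1 week. Tissue was collected at 48 h from the final dose. The labels give 5 mice a group, but they do not say which mice gave the libraries or whether a library pools animals, nor do they give the sex or age of the mice, the cells that the virus reached or the promoter of the hairpin. The p-values below therefore measure the spread between these libraries. Normal livers lack both CCl4 and virus, so the 2 agents cannot be told apart in any comparison with them.

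Glycoproteins and proteoglycans make up the part of the extracellular matrix that surrounds and organises collagen. Elastic fibres are built from elastin laid on a scaffold of fibrillin microfibrils, with fibulins and microfibril-associated proteins as assembly factors, and latent TGF-beta binding proteins tether inactive TGF-beta to those microfibrils. Small leucine-rich proteoglycans such as decorin bind collagen fibrils, and matricellular proteins such as tenascin C and the thrombospondins act on cell adhesion and growth factor signalling rather than as structural parts. In liver, most of these proteins are known as products of stellate cells, portal fibroblasts and endothelial cells, whereas hepatocytes secrete plasma fibronectin and vitronectin.

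Several of the genes lie side by side in the genome. In the GENCODE M21 annotation of GRCm38, the decorin gene Dcn (ENSMUSG00000019929, chr10:97479609-97518143) and the lumican gene Lum (ENSMUSG00000036446, chr10:97565128-97572703) are separated by 47.0 kb. The asporin gene Aspn (chr13:49544443-49567565) and the osteoglycin gene Ogn (chr13:49608046-49624501) are separated by 40.5 kb. The genes of 2 further collagen-binding proteoglycans, Prelp (chr1:133910304-133921414) and Fmod (chr1:134037254-134048277), are 116 kb apart. Smoc2 with Thbs2 on chromosome 17, and Efemp2 with Ltbp3 on chromosome 19, complete the 5 pairs that lie within 500 kb of each other. Fibrillin 1 (Fbn1) shared 20.1% of its exonic bases with an annotated gene on the opposite strand, Gm9913, and 15 of the 40 genes shared at least 1 base. Whether the deposited values were counted by strand is not given in the sources used here, so reads of such partners cannot be told apart.

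The 250 bases before the RefSeq start of 28 of the 40 genes were searched on both strands for 4 short motifs, the AP-1 motif TGANTCA, the TEAD motif GGAATG, the SMAD-binding letters CAGACA and the TATA letters TATAAA. The AP-1 motif reads the same on both strands, and none of the 4 contains another. Each of the 28 genes counts once, by the start nearest to its GENCODE start, whereas the 32851 promoters can hold several starts of a gene. The start used for Podn lay 64491 bases from the GENCODE start. AP-1 letters stood in 2 of the 28 promoters (7.14%, against 6.75% of all 32851 promoters) and TEAD letters in 3 (10.7% against 12.6%). SMAD letters stood in 7 (25% against 17.1%) and TATA letters also in 7 (25% against 12.4%). Of these promoters, 4 are shown, picked in part for their motif letters, so they do not stand for the 28. They are from RefSeq on GRCm38.p6, read 5′ to 3′ on the gene's own strand and ending at the base before the start. Those of Tnc (chr4:64047016-64047265, minus strand) and Postn (chr3:54360857-54361106, plus strand) are shown for their TATA letters, which begin 126 and 26 bases before the start. That of Sparc (chr11:55420081-55420330, minus strand) is shown for SMAD letters 36 bases before the start, which read TGTCTG on the gene's strand. This RefSeq start lies 3103 bases inside the GENCODE gene. That of Fstl1 (chr16:37776805-37777054, plus strand), the gene with the largest log2 difference below, holds none of the 4 motifs. Capitals mark the motif letters.
Tnc: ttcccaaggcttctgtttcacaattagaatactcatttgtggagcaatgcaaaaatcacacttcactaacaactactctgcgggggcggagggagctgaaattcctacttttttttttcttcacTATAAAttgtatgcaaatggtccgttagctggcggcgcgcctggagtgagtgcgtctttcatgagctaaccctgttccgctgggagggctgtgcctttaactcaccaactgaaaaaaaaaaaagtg
Postn: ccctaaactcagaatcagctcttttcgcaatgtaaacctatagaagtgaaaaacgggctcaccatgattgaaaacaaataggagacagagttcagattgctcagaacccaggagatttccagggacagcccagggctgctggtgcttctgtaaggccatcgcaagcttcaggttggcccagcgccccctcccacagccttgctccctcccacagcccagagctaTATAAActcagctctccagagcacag
Sparc: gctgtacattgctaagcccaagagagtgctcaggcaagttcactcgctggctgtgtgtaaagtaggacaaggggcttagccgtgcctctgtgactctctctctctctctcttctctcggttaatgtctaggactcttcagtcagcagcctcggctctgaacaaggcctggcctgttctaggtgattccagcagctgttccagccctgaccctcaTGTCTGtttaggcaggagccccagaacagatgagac
Fstl1: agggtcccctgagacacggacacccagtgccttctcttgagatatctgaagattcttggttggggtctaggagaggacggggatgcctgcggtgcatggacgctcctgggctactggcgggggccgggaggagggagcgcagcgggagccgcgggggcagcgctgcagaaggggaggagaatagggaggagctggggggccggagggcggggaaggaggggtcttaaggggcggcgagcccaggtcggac
A match of letters is a description of the sequence and does not show that a factor binds there.

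The values were read as FPKM (fragments scaled to transcript length and sequencing depth), and they imply 21488841 to 24188029 reads per library. The libraries labelled AAV-shPhpt1 stood apart from each other. On the first principal component of all genes tested, which held 64.1% of the variance, normal libraries scored -59.06 and -57.11, AAV-Ctrl libraries 32.8 and 45.6, AAV-shPhpt1 replicate 1 scored 40.1 and replicate 2 scored -2.26. Phpt1 itself was listed at 0.234 and 0.210 FPKM in normal, 0.227 and 0.0521 in AAV-Ctrl, and 0.213 and 0.259 with the hairpin. These are 1 to 5 reads a library, so the table does not check the hairpin labels, and AAV-shPhpt1 or hairpin below means the libraries so labelled. The tissue label was met by hepatocyte markers. Albumin (Alb), the main plasma protein that hepatocytes secrete, was between 72940 and 129600 FPKM. Cyp2e1, the hepatocyte enzyme that converts CCl4 to its toxic radical, was at 5999 and 6342 FPKM in normal, 819 and 199.97 in AAV-Ctrl, and 217 and 268 with the hairpin.

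Levels of the 40 genes differed by several orders of magnitude in FPKM, which is scaled per length. Vitronectin (Vtn), a plasma adhesion protein, led at 3271 and 2711 FPKM in normal liver, 2354 and 2408 in AAV-Ctrl, and 1961 and 2801 with the hairpin. Fibronectin (Fn1), the dimeric glycoprotein that links integrins to collagen, followed at 422 and 392.4 FPKM in normal, 532 and 636 in AAV-Ctrl, and 442 and 628 with the hairpin. These 2 genes ranked first and second in every group and made up 79.4% to 95.5% of the summed level of the 40 genes, so a sum over all members mostly describes them. Without them, the other 38 genes summed to 176 and 249.9 FPKM in normal, 747 and 661 in AAV-Ctrl, and 484 and 164.5 with the hairpin. On this sum both AAV-Ctrl libraries were above all others, AAV-shPhpt1 replicate 1 was between the groups, and AAV-shPhpt1 replicate 2 was below both normal libraries. Sparc, Dcn, Bgn and Igfbp7 together held 40.3% and 41.6% of it in normal, 63% and 61.6% in AAV-Ctrl, and 53.2% and 43.6% with the hairpin.

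**Figure D1:**
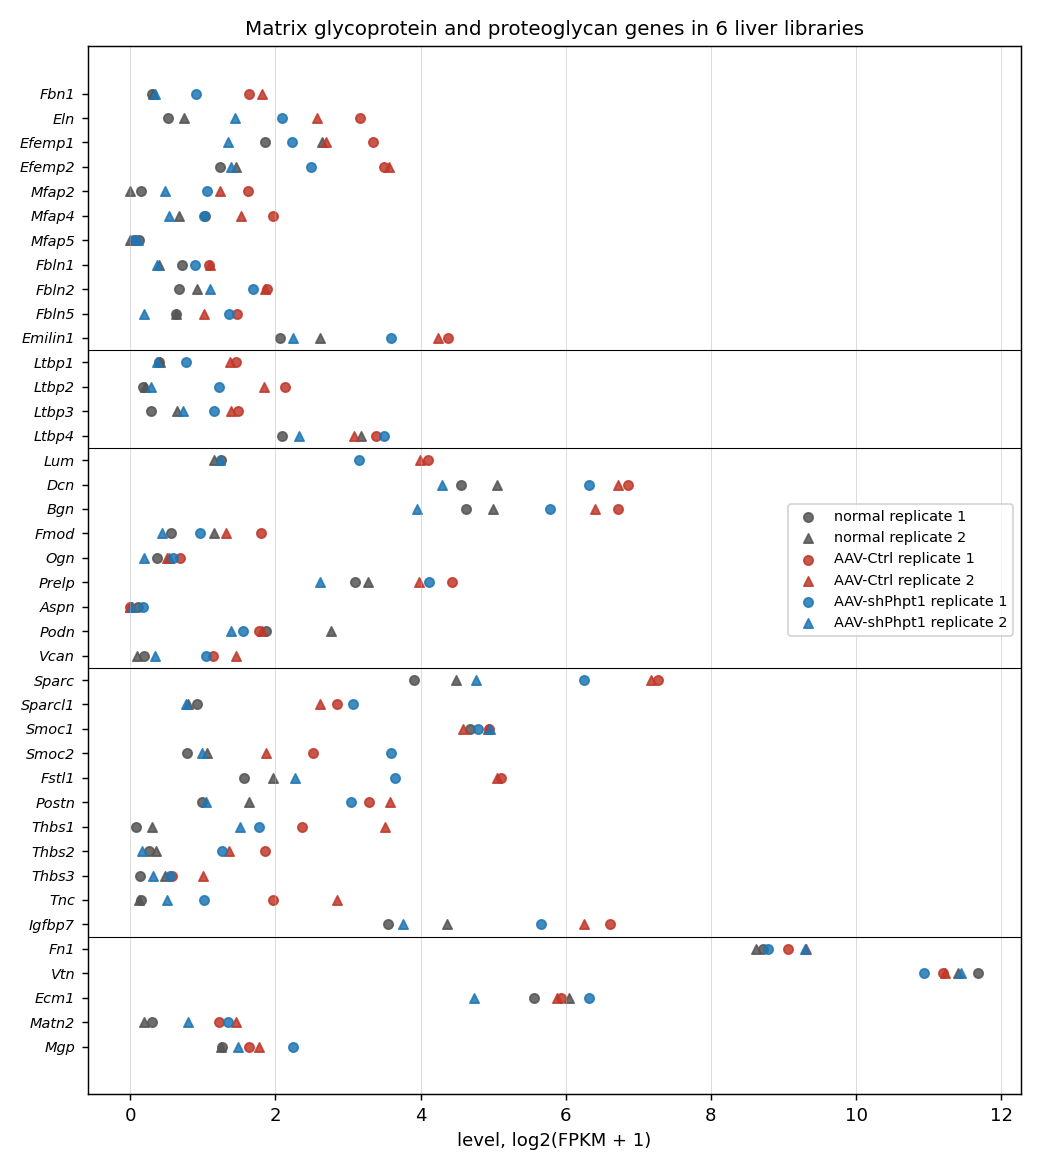
Level of each of the 40 genes in each of the 6 libraries as log2(FPKM + 1), 1 point per library, with genes grouped by role. Vtn and Fn1 stand far to the right of the others in all 6 libraries, and for most genes both AAV-Ctrl points lie to the right of both normal points.

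For the tests, log2(FPKM + 1) was fitted with limma over all 6 libraries, and 36 of the 40 genes reached a mean of 1 FPKM in 1 or more groups. Mfap5, Ogn, Aspn and Thbs3 did not and were left untested. The 3 groups shared 1 estimate of a gene's spread, so the gap between the hairpin libraries enters the p-values of every comparison, also that of AAV-Ctrl with normal. The filter is not neutral. It passed 18 genes through all 3 groups, 6 through AAV-Ctrl and AAV-shPhpt1, and 12 through AAV-Ctrl alone. The 18 genes under a mean of 1 in normal had to be higher in AAV-Ctrl, and the 12 had also to be lower in AAV-shPhpt1 than in AAV-Ctrl. Likewise the 6 had to be higher in AAV-shPhpt1 than in normal. Counts and medians over the tested members below are therefore descriptions. For each of the 3 comparisons, some counts over the 18 genes that passed in all 3 groups are given as well. No such split is given by role, for the position of single hairpin libraries or for other settings. None is given for the pathway and marker lists either, so the filter bears on all those values too.

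The first comparison, of AAV-Ctrl with normal liver, asked how the matrix genes stood after CCl4 with the control virus. At an adjusted p under 0.05 (limma, Benjamini-Hochberg over 13517 genes), 15 of the 36 tested genes had risen and 0 had fallen, where 18.2% of all genes tested had risen and 2.28% had fallen. The 15 were Efemp2, Eln, Emilin1, Fbln2, Fbn1, Mfap2, Ltbp1, Ltbp2, Lum, Fstl1, Igfbp7, Sparc, Thbs1, Tnc and Matn2. Of the 18 genes that passed the filter in all groups, 6 had risen, and the other 9 risen genes were among those under a mean of 1 in normal. Over all 40 genes, both AAV-Ctrl libraries were above both normal libraries for 32, below both for 2 (Podn and Vtn), and overlapped them for 6. Of all genes tested, 60% were higher in both and 12.5% lower in both. The median log2 difference of the tested members was 1.22, beside 0.35 for all genes tested, which is the shift against which these differences stand. Centring each library on its median moved the median of all genes to -0.10 and left 7 of the 15 called. It also changed the split over all genes from 2464 risen and 308 fallen to 566 risen and 729 fallen. With quantile normalization the split was 632 risen and 460 fallen, and 8 of the 15 were called. The 7 genes called under both were Efemp2, Eln, Fstl1, Lum, Sparc, Thbs1 and Tnc. Without any 1 of the 4 libraries compared, 0 members were called, and 2 to 12 of all genes had risen. Without either AAV-shPhpt1 library 24 members were called, and 24.4% to 24.9% of all genes had risen.

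**Figure D2:**
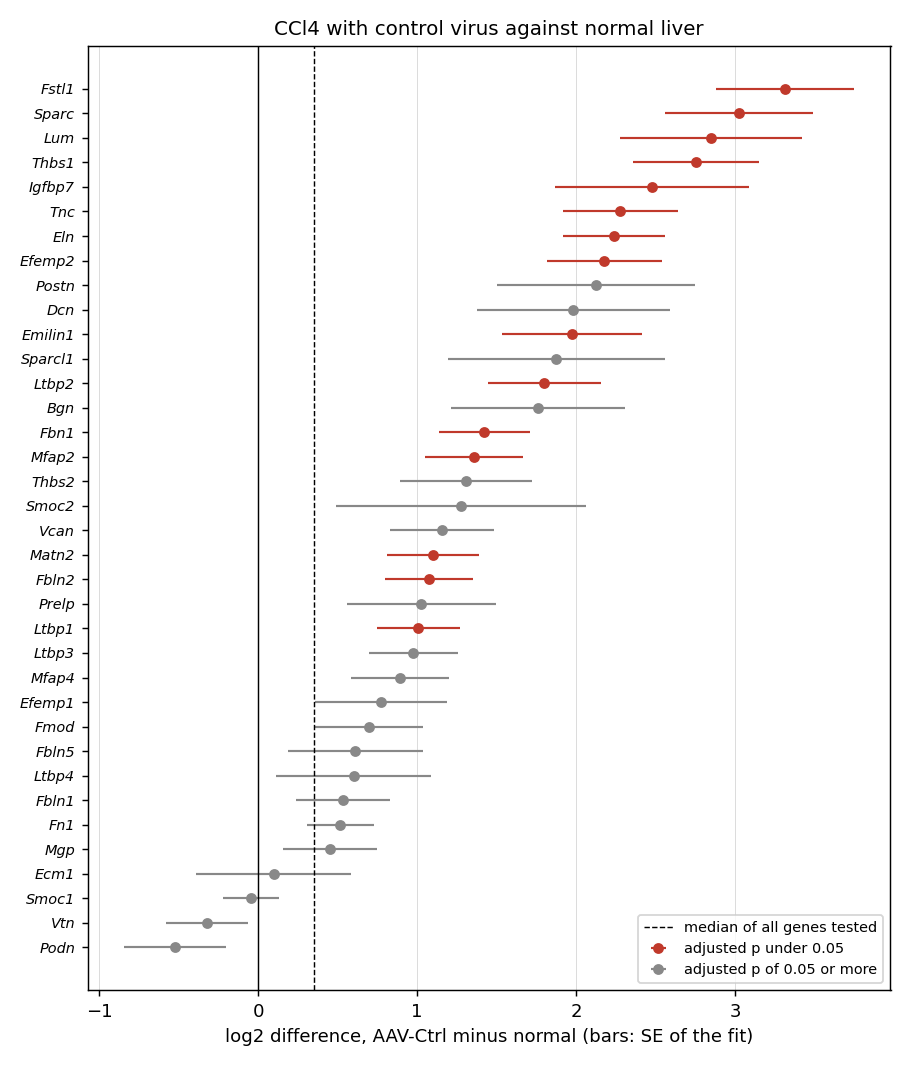
Log2 difference of AAV-Ctrl minus normal on the log2(FPKM + 1) scale for the 36 tested genes, with bars for the standard error of the fit and red for an adjusted p under 0.05. The red points run from 1.01 for Ltbp1 to 3.31 for Fstl1, and the dashed line marks the median of all genes tested, 0.35.

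Of the elastic fibre and microfibril genes, 6 of 10 tested had risen in AAV-Ctrl (18.2% of all genes), with a median log2 difference of 1.22. Elastin (Eln), the rubber-like core of the fibre, was at 0.441 and 0.670 FPKM in normal, 7.96 and 4.98 in AAV-Ctrl, and 3.27 and 1.73 with the hairpin. All 3 groups of 2 were separate from one another. The mean in AAV-Ctrl was 11.6-fold that of normal (log2 difference 2.24 ± 0.32 SE, limma adjusted p = 0.0160). Fbn1, which forms the microfibril backbone, was at 0.229 and 0.243 FPKM in normal, 2.11 and 2.54 in AAV-Ctrl, and 0.872 and 0.266 with the hairpin (9.83-fold, log2 difference 1.42 ± 0.29, limma adjusted p = 0.0273 for AAV-Ctrl against normal). Its 2 hairpin libraries differed 3.27-fold, the lower of them close to normal. Efemp2 (fibulin 4), which carries lysyl oxidase to elastin, was at 1.37 and 1.74 FPKM in normal, 10.2 and 10.8 in AAV-Ctrl, and 4.62 and 1.62 with the hairpin (6.77-fold, log2 difference 2.18 ± 0.36, limma adjusted p = 0.0207). Emilin1, a glycoprotein at the interface of elastin and microfibril, was the most abundant of the group in AAV-Ctrl, with 3.18 and 5.14 FPKM in normal, 19.8 and 17.9 in AAV-Ctrl, and 11.1 and 3.75 with the hairpin (4.54-fold, log2 difference 1.97 ± 0.44, limma adjusted p = 0.0327). For Efemp2 and Emilin1 alike, AAV-shPhpt1 replicate 1 was between the groups and replicate 2 was inside the normal range.

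Mfap2, a small microfibril-associated glycoprotein, was at 0.113 and 0 FPKM in normal and 2.09 and 1.36 in AAV-Ctrl. These values rest on 2 against 65 reads, a ratio of 32.0 relative to library totals with a 95% counting interval of 8.50 to 269.5 (exact conditional binomial, counting error only), and the log2 difference of 1.36 ± 0.31 had an adjusted p of 0.0336 in limma. Fibulin 2 (Fbln2), which bridges matrix proteins, rose by a smaller ratio of 3.57 (adjusted p = 0.0437, limma). The other fibulins were above normal in both AAV-Ctrl libraries without passing the test, Efemp1 (fibulin 3) at 9.12 and 5.49 FPKM against 2.62 and 5.23, Fbln1 at 1.11 and 1.14 against 0.639 and 0.317, and Fbln5, which tethers elastin to cells, at 1.76 and 1.02 against 0.545 and 0.552. Fbln1 had a log2 difference of 0.53 in the fit and of -0.05 after quantile normalization. Mfap4, another microfibril protein, had a log2 difference of 0.89 ± 0.31 (limma adjusted p = 0.0797). Mfap5 was at 0 to 0.0928 FPKM in all libraries, at most 2 reads in any.

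Of the latent TGF-beta binding proteins, 2 of 4 had risen in AAV-Ctrl (18.2% of all genes). Ltbp1, Ltbp2 and Ltbp3 passed the filter through AAV-Ctrl alone, so their means had to be higher there than in normal. Ltbp2, the family member known to bind microfibrils but not latent TGF-beta, was at 0.126 and 0.158 FPKM in normal, 3.40 and 2.59 in AAV-Ctrl, and 1.33 and 0.223 with the hairpin. The AAV-Ctrl mean was 21.1-fold the normal mean (log2 difference 1.80 ± 0.36, limma adjusted p = 0.0269). Ltbp1, which targets latent TGF-beta1 to the matrix, was at 0.319 and 0.333 FPKM in normal, 1.75 and 1.59 in AAV-Ctrl, and 0.698 and 0.295 with the hairpin (5.12-fold, log2 difference 1.01 ± 0.26, limma adjusted p = 0.0440). Ltbp3 had an almost equal difference, 0.98 ± 0.28, that missed the threshold (limma adjusted p = 0.0539). Ltbp4, a partner of fibulin 5 in elastic fibre assembly, was the most abundant member in normal liver and the least separated, at 3.27 and 8.04 FPKM in normal, 9.50 and 7.44 in AAV-Ctrl, and 10.3 and 4.02 with the hairpin. The rank of the family by level thus differed between groups, with Ltbp2 lowest of the 4 in normal and second in AAV-Ctrl, although neighbouring means were within the spread of the libraries for Ltbp1 and Ltbp3.

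Of the proteoglycans, 1 of 7 tested had risen (18.2% of all genes), with a median log2 difference of 1.16. In a fit of the 4 libraries compared alone, Dcn, Bgn, Prelp and Vcan were called beside Lum, where 25.3% of all genes had risen. Lumican (Lum), which spaces collagen fibrils, was at 1.39 and 1.23 FPKM in normal, 16.2 and 15.0 in AAV-Ctrl, and 7.92 and 1.35 with the hairpin (11.9-fold, log2 difference 2.84 ± 0.57, limma adjusted p = 0.0274). The 2 AAV-Ctrl libraries were close to each other, whereas the hairpin libraries differed 5.87-fold. Its neighbour decorin (Dcn), which also binds TGF-beta, was far more abundant, at 22.7 and 32.1 FPKM in normal, 115 and 104 in AAV-Ctrl, and 79.2 and 18.6 with the hairpin (4.01-fold in AAV-Ctrl, log2 difference 1.98 ± 0.61, limma adjusted p = 0.0617). Biglycan (Bgn), a decorin relative, was at 23.6 and 30.9 FPKM in normal, 105 and 83.8 in AAV-Ctrl, and 53.9 and 14.5 with the hairpin (3.46-fold, log2 difference 1.76 ± 0.55, limma adjusted p = 0.0647). For both genes the AAV-Ctrl libraries were above all others and AAV-shPhpt1 replicate 2 was below both normal libraries, and neither passed the threshold. In the fit without either AAV-shPhpt1 library both did, Dcn with an adjusted p of 0.00681 and 0.00687 and Bgn with 0.00781 and 0.00784 (limma).

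Versican (Vcan), the large hyaluronan-binding proteoglycan of provisional matrix, was at 0.144 and 0.0645 FPKM in normal, 1.199 and 1.75 in AAV-Ctrl, and 1.06 and 0.266 with the hairpin. Its 14.2-fold higher mean in AAV-Ctrl rests on 18 and 267 reads and just missed the threshold (log2 difference 1.16 ± 0.33, limma adjusted p = 0.0521). Of the other small leucine-rich members, 2 were higher in both AAV-Ctrl libraries without passing the test, Prelp, an anchor of basement membranes, at 7.53 and 8.66 FPKM in normal and 20.6 and 14.8 in AAV-Ctrl, and fibromodulin (Fmod), which binds collagen fibrils, at 0.484 and 1.24 against 2.48 and 1.502. Podocan (Podn) went the other way, at 2.67 and 5.78 FPKM in normal, 2.43 and 2.51 in AAV-Ctrl, and 1.93 and 1.61 with the hairpin (log2 difference -0.52 ± 0.32, limma adjusted p = 0.252). Ogn held 0.145 to 0.617 FPKM with overlapping groups. Aspn, a relative of decorin known from cartilage and tendon, had a listed value of 0 in each AAV-Ctrl library and in normal replicate 2, and had 4 reads in normal replicate 1 and 7 and 1 in AAV-shPhpt1.

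Matricellular genes had the highest median of the 5 roles, a log2 difference of 2.20, with 5 of 10 tested risen (18.2% of all genes). Thrombospondin 1 (Thbs1), an activator of latent TGF-beta, was at 0.0572 and 0.231 FPKM in normal, 4.17 and 10.4 in AAV-Ctrl, and 2.41 and 1.84 with the hairpin. No 2 groups overlapped, and the AAV-Ctrl mean was 50.7-fold the normal mean (log2 difference 2.75 ± 0.39, limma adjusted p = 0.0160; 22 against 1118 reads, a ratio of 49.97 with a 95% counting interval of 32.8 to 80.1). Tenascin C (Tnc), a wound matrix glycoprotein that is scarce in most adult tissue, was at 0.109 and 0.0837 FPKM in normal, 2.92 and 6.20 in AAV-Ctrl, and 1.02 and 0.421 with the hairpin. Here too the 3 groups were separate (47.4-fold, log2 difference 2.28 ± 0.36, limma adjusted p = 0.0189 for AAV-Ctrl against normal; 26 against 1281 reads). In both genes AAV-Ctrl replicate 2 was the higher of its pair.

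Follistatin-like 1 (Fstl1), a secreted BMP antagonist, was at 1.95 and 2.90 FPKM in normal, 33.4 and 32.1 in AAV-Ctrl, and 11.6 and 3.85 with the hairpin. All 3 groups were separate, and its log2 difference of 3.31 ± 0.43 was the largest of the 36 (13.5-fold, limma adjusted p = 0.0151). Sparc (osteonectin), a collagen chaperone, was at 14.1 and 21.5 FPKM in normal, 154 and 144 in AAV-Ctrl, and 74.8 and 26.1 with the hairpin (8.37-fold, log2 difference 3.02 ± 0.47, limma adjusted p = 0.0180). It had the highest AAV-Ctrl level after Vtn and Fn1. Igfbp7, an IGF-binding protein made by vascular and stromal cells, was at 10.7 and 19.6 FPKM in normal, 97.0 and 75.2 in AAV-Ctrl, and 49.7 and 12.5 with the hairpin (5.69-fold, log2 difference 2.48 ± 0.61, limma adjusted p = 0.0393). Its AAV-shPhpt1 replicate 2 lay within the normal range.

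Periostin (Postn), a fasciclin protein of healing tissue, was at 0.982 and 2.11 FPKM in normal, 8.82 and 10.9 in AAV-Ctrl, and 7.22 and 1.07 with the hairpin, with a log2 difference of 2.12 ± 0.62 that missed the threshold (limma adjusted p = 0.0572). Thbs2, a thrombospondin that does not activate TGF-beta, was at 0.1999 and 0.275 FPKM in normal, 2.64 and 1.57 in AAV-Ctrl, and 1.40 and 0.125 with the hairpin (log2 difference 1.31 ± 0.41, limma adjusted p = 0.0664). In both genes the spread lay mainly between the hairpin libraries, 6.74-fold and 11.2-fold. Sparcl1 (hevin), a Sparc relative, was at 0.899 and 0.740 FPKM in normal, 6.23 and 5.13 in AAV-Ctrl, and 7.39 and 0.710 with the hairpin, a 10.4-fold gap between the 2 hairpin libraries. Smoc2, a calcium-binding relative of Sparc, was at 0.728 and 1.08 FPKM in normal, 4.73 and 2.67 in AAV-Ctrl, and 11.1 and 0.994 with the hairpin. For both, hairpin replicate 1 was the highest of all 6 libraries and replicate 2 was close to the normal level. Smoc1, the paralog of Smoc2, had overlapping groups throughout, at 24.7 and 29.4 FPKM in normal, 29.6 and 22.9 in AAV-Ctrl, and 26.8 and 29.99 with the hairpin, with a log2 difference of -0.04 ± 0.18 in AAV-Ctrl (limma adjusted p = 0.866). Thbs3 was below the filter, at 3 and 13 reads in normal, 15 and 33 in AAV-Ctrl, and 15 and 8 with the hairpin.

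Of the adhesive and remaining glycoproteins, 1 of 5 had risen, beside 18.2% of all genes. Matrilin 2 (Matn2), a filament-forming adaptor, was at 0.228 and 0.146 FPKM in normal, 1.35 and 1.76 in AAV-Ctrl, and 1.54 and 0.738 with the hairpin (8.29-fold, log2 difference 1.10 ± 0.29, limma adjusted p = 0.0447). Fn1 had a log2 difference of 0.52 ± 0.21 (limma adjusted p = 0.119), near the 0.35 of all genes, and Vtn one of -0.32 ± 0.26 (adjusted p = 0.370, limma). After quantile normalization Vtn stood at 0.05. Extracellular matrix protein 1 (Ecm1), a secreted glycoprotein known to hold TGF-beta latent in mouse liver, was at 46.4 and 65.3 FPKM in normal, 59.98 and 58.0 in AAV-Ctrl, and 79.2 and 25.5 with the hairpin. Its normal and AAV-Ctrl libraries overlapped, and the 2 hairpin libraries were the highest and the lowest of all. Matrix Gla protein (Mgp), an inhibitor of calcification, was at 1.40 and 1.38 FPKM in normal, 2.10 and 2.43 in AAV-Ctrl, and 3.75 and 1.80 with the hairpin (log2 difference 0.45 ± 0.30, limma adjusted p = 0.286). The differences of Ecm1 and Mgp turned below 0 under both scaling alternatives.

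The second comparison, of AAV-shPhpt1 with AAV-Ctrl, asked what the hairpin changed under the same CCl4. Both comparisons use the AAV-Ctrl libraries, so they are not independent of each other. With limma, 0 of the 36 genes passed an adjusted p under 0.05 in either direction, where 0% of all 13517 genes did. The lowest adjusted p was 0.434 for Fstl1 among members and 0.307 among all genes, and 17 of the 36 members had an unadjusted p under 0.05 beside 8.48% of all genes. By order of the libraries, both hairpin libraries were below both AAV-Ctrl libraries for 25 of the 36, where 26.2% of all genes tested had that order, and above both for 0. A difference below 0 was found for 33 of the 36 and for 61.1% of all genes. Of the 18 genes that passed the filter in all groups, 11 were lower in both and 16 had a difference below 0, with a median log2 difference of -1.31. The median log2 difference was -0.85 for members and -0.07 for all genes. Over all 40 genes, 26 were lower in both, 13 overlapped, and Aspn alone was higher in both, on 8 reads against 0.

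The largest differences from AAV-Ctrl were those of Fstl1 at -2.11 ± 0.43, Lum at -1.85 ± 0.57, Igfbp7 at -1.73 ± 0.61, Sparc at -1.72 ± 0.47, Bgn at -1.70 ± 0.55 and Tnc at -1.65 ± 0.36 on the log2 scale (limma adjusted p between 0.434 and 0.540). AAV-Ctrl means exceeded hairpin means 4.24-fold for Fstl1, 3.36-fold for Lum, 2.77-fold for Igfbp7, 2.95-fold for Sparc, 2.76-fold for Bgn and 6.34-fold for Tnc. All 6 genes were lower in both hairpin libraries than in either AAV-Ctrl library. They lead on the log2(FPKM + 1) scale, which understates low genes. By ratio of means, Fbn1 (4.08-fold), Ltbp2 (3.87-fold), Thbs1 (3.44-fold) and Efemp2 (3.37-fold) were also above Lum. By role, both hairpin libraries were lower for 9 of 10 elastic fibre genes (median log2 difference -1.03), 3 of 4 latent TGF-beta binding proteins (-0.67), 6 of 7 proteoglycans (-0.85), 7 of 10 matricellular genes (-1.35) and 0 of 5 adhesive and other glycoproteins (-0.14). Of all genes tested, 26.2% were lower in both. The filter passed Fbn1, Mfap2, Mfap4, Fbln1, Fbln5, Ltbp1, Ltbp2, Ltbp3, Fmod, Vcan, Thbs2 and Tnc through AAV-Ctrl alone. Their hairpin means had to be below those of AAV-Ctrl, so the counts and medians of their roles are partly set by the filter. Fn1, Vtn, Ecm1, Matn2 and Mgp of the adhesive and other role all had hairpin libraries that overlapped those of AAV-Ctrl. Those of Fbln5, Ltbp4, Prelp, Sparcl1, Smoc1 and Smoc2 overlapped too, with hairpin replicate 1 within or above the AAV-Ctrl range for each. Of the scarcer microfibril genes that were lower in both, Mfap2 was at 1.08 and 0.402 FPKM with the hairpin, against 2.09 and 1.36 in AAV-Ctrl. Mfap4 was at 1.03 and 0.450 against 2.91 and 1.88. Efemp1 was at 3.68 and 1.55 against 9.12 and 5.49, which put replicate 2 below both normal libraries. Fbln1 was at 0.863 and 0.294 against 1.11 and 1.14, and Fbln2 was at 2.23 and 1.15 against 2.69 and 2.63. Ltbp3, which assists the secretion of TGF-beta, was at 1.22 and 0.661 against 1.81 and 1.63. Fmod was at 0.951 and 0.362 against 2.48 and 1.502. For each of these 7 genes replicate 1 was the higher of the hairpin pair. Prelp, at 16.4 and 5.12 FPKM, and Fbln5, at 1.56 and 0.137, had replicate 1 inside the AAV-Ctrl range and replicate 2 below both normal libraries.

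The 2 hairpin libraries did not lie at the same place. The filter bears on the counts that follow, since 12 of the 36 genes had to have a lower mean in AAV-shPhpt1 than in AAV-Ctrl. Replicate 1 was above replicate 2 for 33 of the 36 tested genes (60.5% of all genes), and by over 2-fold for 28 of them (14.5% of all genes). Replicate 1 was between the groups, above both normal and below both AAV-Ctrl libraries, for 22 of the 36 (21.4% of all genes), and above both normal libraries for 30 (66.5% of all genes). Replicate 2 was below both AAV-Ctrl libraries for 33 (49.4% of all genes), and for 21 it was within the normal range or below it (40.2% of all genes). It was below both normal libraries for 13 of the 36 (20% of all genes), among them Dcn and Bgn. The median difference between the hairpin replicates was 0.82 on the log2 scale for members, beside 0.09 for all genes. The same medians were -0.21 between normal replicates and 0.10 between AAV-Ctrl replicates.

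**Figure D3:**
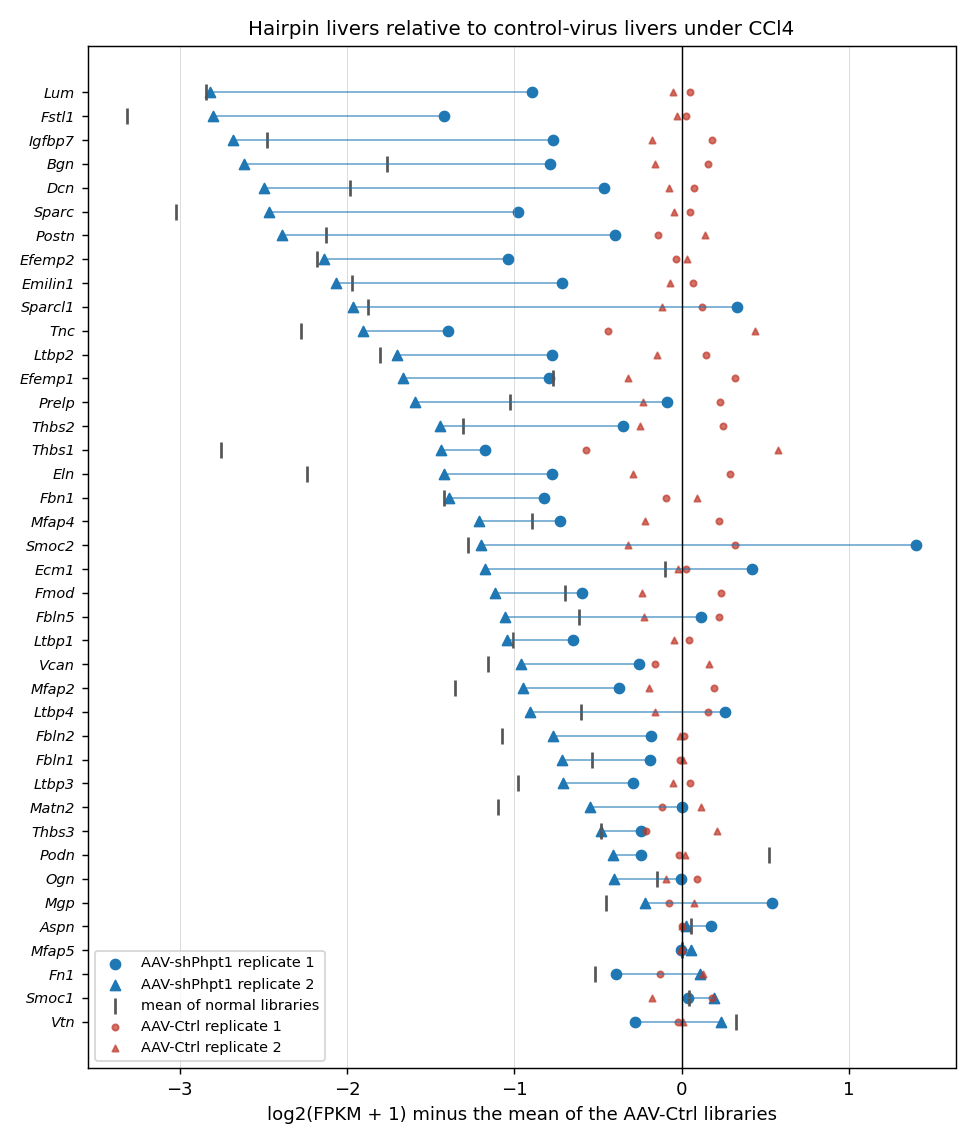
Each gene's level in AAV-shPhpt1 replicate 1 (blue circles) and replicate 2 (blue triangles) as log2(FPKM + 1) minus the mean of the AAV-Ctrl libraries at 0, with the AAV-Ctrl libraries in red and the normal mean as a grey bar. Replicate 1 lies to the right of replicate 2 for 36 of the 40 genes, and replicate 2 lies close to or left of the normal mean for many of them.

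Each hairpin library was also left out in turn, with the remaining one assumed to vary like the other groups. Without replicate 1, 12 members passed the test as lower than AAV-Ctrl, and they were Bgn, Dcn, Efemp2, Emilin1, Fbn1, Fstl1, Igfbp7, Ltbp2, Lum, Postn, Sparc and Sparcl1. In that setting 2.52% of all genes passed as lower. Without replicate 2, 0 members passed, and 0.0146% of all genes did. The median log2 difference of the members was -1.30 without replicate 1 and -0.40 without replicate 2, and 33 and 29 of the 36 were below 0. Sparcl1 and Smoc2 changed sign between the 2 settings, Sparcl1 from -1.96 to 0.33 and Smoc2 from -1.202 to 1.40. Fstl1 stayed at -2.80 and -1.42 and Tnc at -1.90 and -1.40.

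The third comparison set AAV-shPhpt1 against normal liver, and it shares its libraries with the other two. With limma, 0 of the 36 members had risen or fallen, where 3.26% of all genes had risen and 1.07% had fallen. An unadjusted p under 0.05 was met by 6 members, 5 higher (Eln, Thbs1, Sparc, Fstl1 and Matn2) and 1 lower (Podn), where 31.7% of all genes met it. The closest to the threshold were Thbs1, with a log2 difference of 1.45 ± 0.39 (limma adjusted p = 0.0816) and Eln, with 1.14 ± 0.32 (adjusted p = 0.0860, limma). Both hairpin libraries were above both normal libraries for 14 of the 36 members, where 52.2% of all genes had that order. Of the 18 genes that passed the filter in all groups, 4 had that order. The median log2 difference was 0.53 for members and 0.30 for all genes. Podn was the only one of the 40 below both normal libraries in both hairpin libraries, with a log2 difference of -0.85 ± 0.32 (limma adjusted p = 0.136). Under median centring 14 of the 36 differences were below 0, in place of 6 in the fit as reported, and under quantile normalization also 14.

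Without replicate 2, 14 members passed the test as higher than normal, and they were Dcn, Efemp2, Eln, Emilin1, Fstl1, Igfbp7, Ltbp2, Lum, Matn2, Mgp, Postn, Smoc2, Sparc and Sparcl1. In that setting 14.3% of all genes passed as higher. Without replicate 1, 0 members passed, where 0.305% of all genes did, and the median log2 difference of the members was -0.003 in place of 0.95 without replicate 2. Dcn, which binds collagen and TGF-beta, went from 1.52 above normal without replicate 2 to -0.52 without replicate 1. Each of these calls therefore rests on which hairpin library is kept.

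Summed markers of several cell types moved with the matrix genes. The 14 listed markers of stellate cells and myofibroblasts, the main matrix producers of injured liver, summed to 29.1 and 36.4 FPKM in normal, 217 and 191 in AAV-Ctrl, 117.7 in AAV-shPhpt1 replicate 1 and 37.0 in replicate 2. Of the 12 tested, 5 had risen in AAV-Ctrl (18.2% of all genes), named here after their values were seen as Col1a1, Col1a2, Pdgfrb, Des and Acta2. Both AAV-Ctrl libraries were higher for 11 (60% of all genes), and both hairpin libraries were lower for 5 (26.2%). The most abundant genes of the list, the collagen I chains Col1a1 and Col1a2, were at 1.93 and 2.60 FPKM and at 2.81 and 2.50 in normal, 72.5 and 61.2 and 65.3 and 53.7 in AAV-Ctrl, and 28.2 and 6.94 and 22.5 and 6.45 with the hairpin. They are matrix genes themselves and hold a large part of the AAV-Ctrl sums. Colec11 overlapped, at 8.78 and 13.0 FPKM in normal and 15.8 and 12.1 in AAV-Ctrl. Lrat was highest in hairpin replicate 1 (5.60 FPKM) and Des in replicate 2 (7.39). The 10 macrophage markers summed to 217 and 164 FPKM in normal, 1083 and 841 in AAV-Ctrl, and 573 and 99.4 with the hairpin. All 10 were lower in both hairpin libraries than in AAV-Ctrl (26.2% of all genes). In AAV-Ctrl 3 of the 10 had risen (18.2% of all genes). Lyz2, which encodes lysozyme, was at 25.6 and 20.8 FPKM in normal, 257 and 239.5 in AAV-Ctrl, and 164 and 47.7 with the hairpin. Cd5l was at 36.4 and 21.7 FPKM in normal, 206.5 and 139 in AAV-Ctrl, and 97.7 and 10.7 with the hairpin. Hairpin replicate 2 was below both normal libraries for Cd5l, C1qa and C1qb, but above both for Lyz2 and Cd68. Endothelial markers summed to 22.8 and 49.7 FPKM in normal, 108 and 95.1 in AAV-Ctrl, and 75.3 and 29.7 with the hairpin. Of the 10, 3 had risen in AAV-Ctrl (Pecam1, Lyve1 and Stab1), beside 18.2% of all genes. In the sums of each of these 3 lists AAV-shPhpt1 replicate 1 was between the groups and replicate 2 was near or below normal, the order seen for the summed matrix genes.

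Other lists differed in order. Cholangiocyte markers, of which the secreted Spp1, also a matrix glycoprotein, is the most abundant, summed to 30.3 and 35.3 FPKM in normal, 69.9 and 132.5 in AAV-Ctrl, and 87.5 and 107 with the hairpin, so both hairpin libraries stayed above normal. Markers of portal fibroblasts and mesothelium summed to 6.69 and 5.50 FPKM in normal, 19.3 and 19.4 in AAV-Ctrl, and 14.7 and 10.3 with the hairpin. Platelet markers, listed because platelets carry Thbs1, were at a summed 2.26 and 3.51 FPKM in normal, 5.78 and 11.2 in AAV-Ctrl, and 10.97 and 3.92 with the hairpin, with 0 of 3 tested genes called and Gp1bb listed at 0 throughout. Of 11 hepatocyte markers, 2 had risen in AAV-Ctrl (Apob and Trf) and 1 had fallen (Cyp2e1), beside 18.2% and 2.28% of all genes tested. In bulk tissue, fewer cells of a type and less RNA per cell cannot be told apart, and the part of these cell types in the differences of the matrix genes was not tested.

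**Figure D4:**
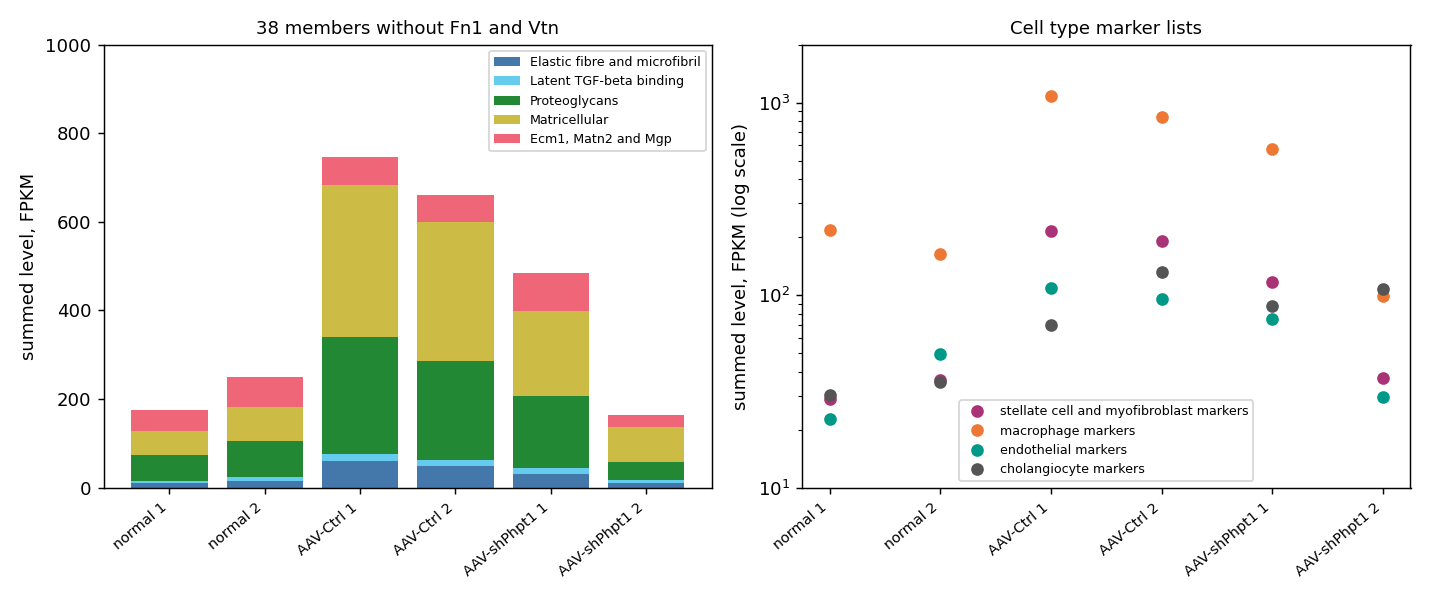
Summed FPKM per library of the 38 genes other than Fn1 and Vtn, stacked by role (left, linear axis), and of 4 cell type marker lists (right, log axis). The left bars reach 747 and 661 FPKM in AAV-Ctrl and 164.5 in AAV-shPhpt1 replicate 2, and the stellate cell, macrophage and endothelial points order the libraries in much the same way.

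Other genes of the same pathways were described from 4 lists that hold none of the 40. Of 26 tested further matrix glycoproteins, 13 had risen in AAV-Ctrl and 1, the IGF-binding Igfbp4, had fallen (median log2 difference 1.30), and 12 were lower in both hairpin libraries. Spon2, a secreted F-spondin relative, was at 3.12 and 2.48 FPKM in normal, 21.1 and 18.5 in AAV-Ctrl, and 18.6 and 9.12 with the hairpin. Wisp1, a matricellular CCN protein, was at 0.163 and 0.391 FPKM in normal, 5.45 and 6.10 in AAV-Ctrl, and 2.33 and 2.97 with the hairpin. Both had risen in AAV-Ctrl (limma adjusted p = 0.0151 and 0.00849) and were also higher than normal in AAV-shPhpt1 (limma adjusted p = 0.0390 and 0.0305). In AAV-shPhpt1 against normal 5 of the 26 had risen and 1 had fallen, beside 3.26% and 1.07% of all genes and 0 of the 36 members. Reln, a signalling glycoprotein known from stellate cells, and Emilin2, a relative of Emilin1, completed the 4 largest differences of the list, with 5.22-fold and 8.83-fold higher means in AAV-Ctrl.

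Of 12 tested further proteoglycans and hyaluronan-binding genes, 5 had risen in AAV-Ctrl and 0 had fallen. Serglycin (Srgn), the granule proteoglycan of blood cells, was at 3.50 and 3.19 FPKM in normal, 28.6 and 39.5 in AAV-Ctrl, and 26.1 and 5.61 with the hairpin. Cd44, the hyaluronan receptor, was at 1.80 and 1.17 FPKM in normal, 16.4 and 20.7 in AAV-Ctrl, and 8.77 and 6.78 with the hairpin, and it remained above normal in the hairpin libraries (log2 difference 1.82 ± 0.23, limma adjusted p = 0.0239). Unlike Srgn, its 2 hairpin libraries were close together. The link protein Hapln4 and the heparan sulfate proteoglycan Gpc1 rose less, 2.82-fold and 2.25-fold in AAV-Ctrl.

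Of 18 tested glycosaminoglycan synthesis genes, 7 had risen in AAV-Ctrl and 0 had fallen, with a median log2 difference of 0.71. Dse, the epimerase that turns chondroitin sulfate into the dermatan sulfate carried by decorin and biglycan, was at 2.38 and 2.94 FPKM in normal, 16.5 and 15.3 in AAV-Ctrl, and 7.47 and 2.06 with the hairpin (5.98-fold, log2 difference 2.21 ± 0.45, limma adjusted p = 0.0278). Its order of libraries was that of Dcn and Bgn. Chst14, the sulfotransferase of the same pathway, was at 0.388 and 0.471 FPKM in normal, 1.99 and 2.06 in AAV-Ctrl, and 1.89 and 1.26 with the hairpin, with both hairpin libraries above normal. Chpf, a chondroitin polymerising factor, and Papss1, which makes the sulfate donor, also rose in AAV-Ctrl (4.36-fold and 2.41-fold). In the hairpin libraries 5 of the 18 were lower in both than AAV-Ctrl, and 2, Chpf2 and B3galt6, were higher in both, beside 26.2% and 11.8% of all genes.

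Of 7 tested matrix-cleaving Adamts proteases, 4 had risen in AAV-Ctrl and 0 had fallen, and 5 were lower in both hairpin libraries. Adamts9, Adamts12 and Adamts14 passed the filter through AAV-Ctrl alone, so their means had to be higher there than in the other groups. Adamts2, the procollagen N-proteinase, was at 1.12 and 1.33 FPKM in normal, 8.13 and 5.23 in AAV-Ctrl, and 3.72 and 1.05 with the hairpin. Adamts1, which cleaves versican, was at 1.70 and 2.27 FPKM in normal, 6.58 and 8.54 in AAV-Ctrl, and 5.21 and 5.75 with the hairpin, where it was still above normal (log2 difference 1.12 ± 0.21, limma adjusted p = 0.0459). Adamts12 and Adamts9 were scarce in normal liver, at most 0.269 FPKM, and were 31.2-fold and 9.07-fold higher in AAV-Ctrl. The 4 lists are read beside the 18.2% of all genes that had risen and the 26.2% that were lower in both hairpin libraries, and nothing in them was tested as a set.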

How the data were processed

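Liver RNA of 6 libraries was sequenced from TruSeq libraries, per the labels' protocols. No unit stands in the deposited table. The values were taken as FPKM made by the authors, since FPKM times the rounded mean transcript length of a gene (GENCODE M21) was a whole multiple of 1 step per library, within 0.05 reads, for 96.3% to 96.6% of values. The submitters' processing notes name Bowtie 0.12.2 and 2 builds, mm8 with mm9. The counter, annotation and build of the table were not given in the sources used here. All 6 value columns were matched to samples by title, and 0 were left out.

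Differences were fitted with limma 3.58.1 (R 4.3.3, trended prior) on log2(FPKM + 1) over all 6 libraries, for the 13517 genes that reached a mean of 1 FPKM in 1 or more groups, two-sided, Benjamini-Hochberg adjusted. A fold on this scale understates the change of low genes, so ratios of mean FPKM stand beside it. Called means an adjusted p under 0.05. The procedure was tested on simulated data, where it recovered nearly all changed genes but false calls made up a larger share of calls than the adjustment aims at. Those changes were large, were placed in well-covered genes of AAV-Ctrl only, and had equal spread in all groups. In these data the replicate SD on the log2 scale was 0.439 in AAV-shPhpt1, beside 0.306 in normal and 0.28 in AAV-Ctrl. The simulated recovery therefore does not measure the power for low genes or for the hairpin comparisons. No gene set was tested. Recovered reads gave the depth and the exact counting intervals, which cover counting error only. The 2 libraries of a group differed by more than sampling noise, with a chi-square per gene of 46.4 to 91.5.

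The members and lists were chosen with earlier results of these data known. All members may be named. Of each pathway list, the 4 called genes with the largest differences and separate groups in AAV-Ctrl against normal are named, and of each marker list the most abundant. Sequences are from RefSeq (GRCm38.p6) and gene positions from GENCODE M21 (GRCm38), which need not be the authors' build. Alternatives were another pseudocount, filter, scaling, sample set, prior and a replicate block, and leaving out each library.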

Additional observations from a re-analysis of the deposited data

How the results depend on the processing

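The count of members risen in AAV-Ctrl against normal, 15 as reported, was 15 with a pseudocount of 0.1, 16 with a constant prior and 12 with a replicate block. It was 0 with no filter (22 at an unadjusted p under 0.05), 8 of 20 tested with a filter of 5 FPKM, 7 with median centring, 8 with quantile normalization and 24 from the 4 libraries compared alone. Leaving out 1 library gave 0 to 24. The cause of these moves was not tested, except that the filter of 5 left fewer genes. Members lower in AAV-shPhpt1 than in AAV-Ctrl counted 0 under every alternative but 1, with a range of 0 to 12 on leaving out 1 library. Members higher in AAV-shPhpt1 than in normal counted 0, 1 with a pseudocount of 0.1 (Thbs1), and 0 to 14 on leaving out 1 library. Calls in the opposite direction counted 0 in all settings. No member called in the reported fit of AAV-Ctrl against normal changed sign in that comparison. In AAV-shPhpt1 against normal, where none was called, Fbn1 and Ltbp1 were among those that turned below 0 under both scaling alternatives. The labels do not say that replicate numbers pair samples, and deviations of same-numbered libraries correlated at 0.0727, 0.0406 and 0.153 over genes, so the replicate block, which lost Fbln2, Ltbp1 and Matn2, gives no paired result. Depth limits Mfap5, Aspn and Phpt1, at 0 to 7 reads a library.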
